A study of Mus musculus with 24 samples.

Results

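The 10 immediate early genes *Fos*, *Fosb*, *Junb*, *Egr1*, *Egr2*, *Egr4*, *Arc*, *Npas4*, *Nr4a1* and *Ier2* were followed in the mouse hippocampus during epileptogenesis. They were chosen by name as genes of the first transcriptional response to neuronal activity, with earlier results of these data known. All 10 were found among the 55385 gene identifiers of the count data. The mice were adults of both sexes with the genotype Tsc1fl/fl-Tg(Camk2a-CreERT2), in which both copies of *Tsc1*, an inhibitor of mTOR signaling, can be deleted by a tamoxifen-induced Cre recombinase. All 24 mice, controls included, received tamoxifen. The 4 *Tsc1-Cre-* controls, which carried the floxed alleles without the Cre transgene, were killed on day 8 after tamoxifen, and *Tsc1-Cre+* mice were killed in groups of 4 on days 4, 6, 8 and 13. In the *Tsc1-Cre+*-Rap group, 4 further *Tsc1-Cre+* mice received daily intraperitoneal injections of 10 mg/kg rapamycin, an mTOR inhibitor, from day 4 and were killed on day 13. The paper describes no vehicle injections in the other groups. The *Camk2a* promoter drives Cre in excitatory forebrain neurons, so the other cells of the hippocampus kept *Tsc1*, and the controls had no later time point of their own. All mice were under isoflurane when they were decapitated. Hippocampal RNA was measured by sequencing of ribosomal RNA-depleted total RNA in 1 library per mouse.

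Immediate early genes are transcribed within minutes of synaptic activity or depolarization, without new protein synthesis, when calcium entry and growth factor signals act on transcription factors that are already bound to their promoters, such as CREB and SRF. Their mRNAs and proteins are short-lived, and many of the proteins are transcription factors that switch on a second, slower wave of genes. Seizures are among the strongest known triggers of these genes in the hippocampus, and their levels in a tissue sample reflect the activity of roughly the last hour of life. In whole tissue, fewer cells of a type and less RNA per cell cannot be told apart.

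The promoters of the 4 genes *Fos*, *Egr2*, *Fosb* and *Nr4a1* are shown because these members were among those called higher on day 13. The sequences are from RefSeq on GRCm38.p6, run 5′ to 3′ up to the transcription start, and carry in capitals each TGACG (a short form of the CREB site, printed as CGTCA where it lies on the other strand) and each CArG box, the binding sequence of SRF. *Fos* (chr12:85473640-85473889, plus strand) held TGACG 129 and 66 bases before its start, and *Egr2* (chr10:67537619-67537868, plus strand) held it at 111 and 55 bases with a CArG box between them. *Fosb* (chr7:19310052-19310295, minus strand) held 1 TGACG at 60 bases, and *Nr4a1* (chr15:101266596-101266845, plus strand) held 4. The starts shown for *Egr2* and *Nr4a1* lie inside the annotated genes, the *Egr2* one being the first by position with TGACG. The *Fosb* sequence was cut to 244 bases where the annotated exon begins. Its TGACG position is counted from the RefSeq start, which lies beyond the end of the printed sequence.

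Fos: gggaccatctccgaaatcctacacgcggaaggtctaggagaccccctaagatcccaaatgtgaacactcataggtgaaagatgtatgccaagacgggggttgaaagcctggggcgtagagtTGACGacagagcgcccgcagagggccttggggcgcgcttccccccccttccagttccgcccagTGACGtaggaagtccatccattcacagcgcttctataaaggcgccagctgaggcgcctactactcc

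Egr2: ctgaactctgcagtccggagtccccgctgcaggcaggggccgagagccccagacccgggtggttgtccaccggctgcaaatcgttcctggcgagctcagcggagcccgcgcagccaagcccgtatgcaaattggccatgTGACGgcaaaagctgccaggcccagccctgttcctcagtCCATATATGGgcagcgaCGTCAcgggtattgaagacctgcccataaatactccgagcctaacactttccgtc

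Fosb: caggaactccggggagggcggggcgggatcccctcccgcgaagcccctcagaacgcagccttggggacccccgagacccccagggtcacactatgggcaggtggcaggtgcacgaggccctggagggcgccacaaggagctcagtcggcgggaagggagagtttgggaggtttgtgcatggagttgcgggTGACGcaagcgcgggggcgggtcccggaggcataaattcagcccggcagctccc

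Nr4a1: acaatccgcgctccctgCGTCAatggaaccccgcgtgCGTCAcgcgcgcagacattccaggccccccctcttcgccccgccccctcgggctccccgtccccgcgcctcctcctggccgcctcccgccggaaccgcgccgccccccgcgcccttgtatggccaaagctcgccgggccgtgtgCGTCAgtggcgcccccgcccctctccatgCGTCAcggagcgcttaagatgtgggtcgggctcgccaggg

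Promoters of 7 of the 10 members were found, and all 7 held TGACG on either strand within the 250 bases before a start, against 19.8% of the 27025 genes searched in the same way. The CArG box was found in 1 of the 7, *Egr2*, and in 1.62% of all genes, and the full palindrome TGACGTCA was found in none of the 7 and in 1.77% of all genes. These matches describe letters in a window and not bound sites. *Arc*, *Egr1* and *Ier2* were not searched.

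Total counts per library ranged from 28208561 to 126435936. Levels are given as CPM, library-scaled counts with TMM normalization, and changes as log2 fold change ± SE from edgeR's quasi-likelihood test on the 8 mice of a comparison. Genes were called at a Benjamini-Hochberg adjusted p below 0.05 if the log2 fold change was also more than 0.5 in size. *Tsc1* itself lay between 102.5 and 109.4 CPM in the controls and between 57.4 and 81.7 CPM in the 20 *Tsc1-Cre+* mice, so that no library went against its genotype label, and the neuronal markers *Snap25*, *Syt1* and *Slc17a7* lay above 552 CPM in all 24 libraries. The library names fell into 12 number series, whose meaning the labels do not give. The controls shared their 2 series with day 8 and with no other group, so for the other groups number series and condition cannot be told apart. Mouse D of day 13 had the lowest level of its group in every member, and it was the only library of its series, as was mouse C, so the calls of the members on day 13 are given with and without mouse D. Since it was set aside for its low levels of these same genes, the calls and p-values without it are conditional on that choice and are no independent support. Mice A, B and C also held 137.2, 66.0 and 165.5 CPM over 9 near-identical gene models at the start of chromosome 9 (3000922 to 3038316), against at most 1.30 CPM in the other 21 mice, among which mouse D had 0. The part of these differences between libraries in the results was not tested.

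All 10 members differed among the 6 groups by edgeR's F test over 24 mice, with adjusted p-values from 4.8e-07 for *Egr2* to 0.0162 for *Egr1*, where 41.9% of all genes tested did so. Day 13 had the highest mean of every member, but in no member did its 4 mice lie above all mice of the next group, since mouse D lay lower. The order of the other groups differed from gene to gene, and no pair of neighbouring groups in any member's order was separated without overlap. Per kilobase of transcript, *Arc* was the most abundant member in the controls, at a mean of 35.6 CPM per kb, followed by *Junb* at 10.1 and *Nr4a1* at 9.17. *Egr2* was the least abundant at 0.291 CPM per kb. On day 13 *Arc* and *Junb* still led with 92.8 and 46.0 CPM per kb, while *Fos* moved from the sixth place, at 2.16, to the third, at 32.5.

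**Figure D1:**
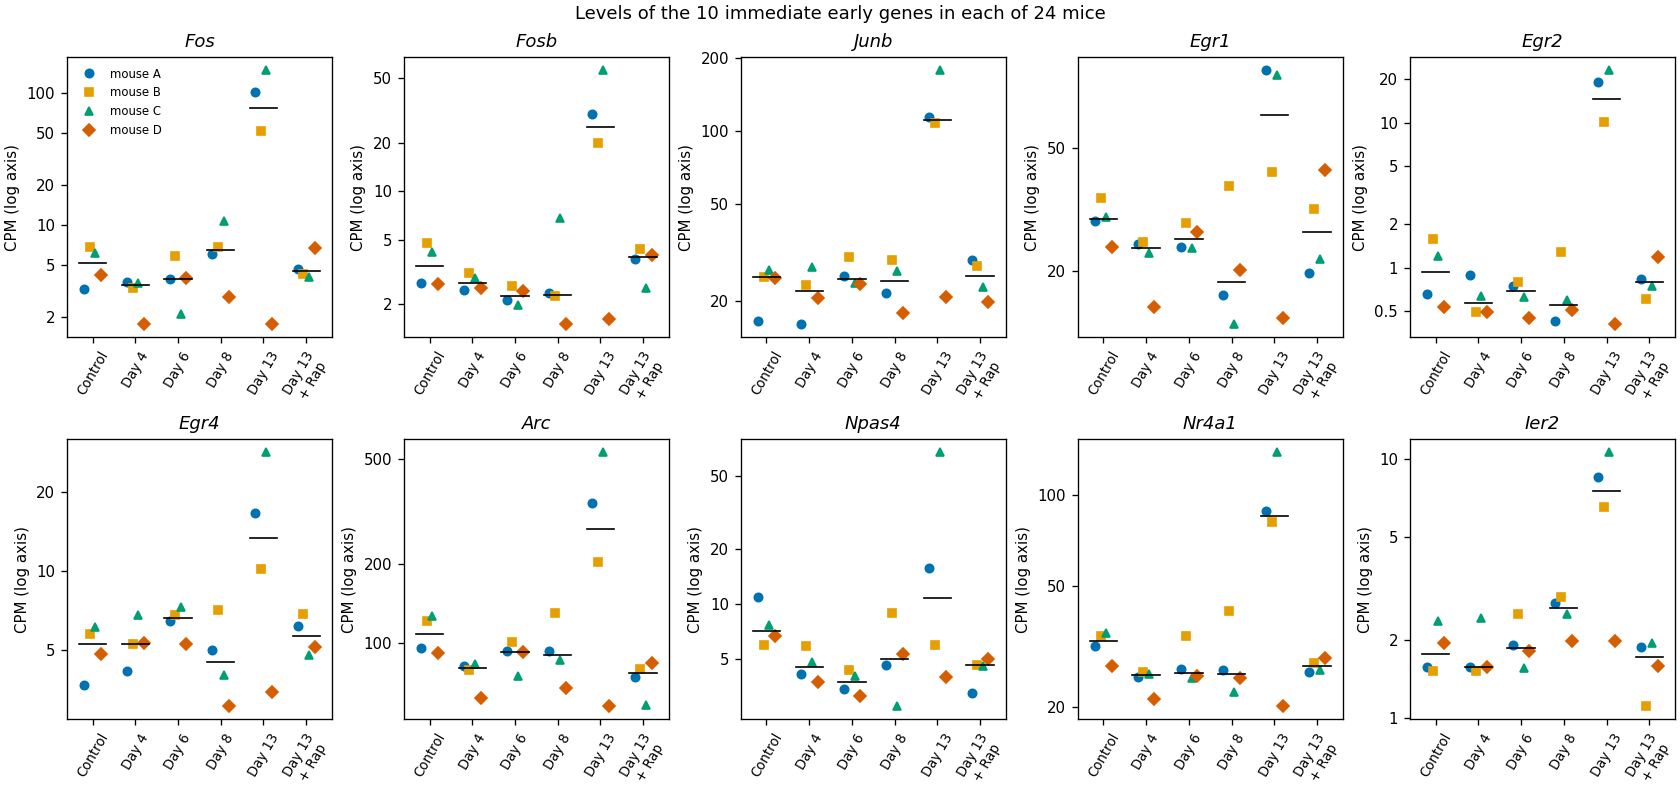
Level of each member in CPM on a log axis, for 6 groups of 4 mice; each point is 1 mouse, its letter names it within its group only, and the bar is the group's median. Mice A, B and C of day 13 lie far above the rest for most genes, and mouse D of day 13 lies within or below the range of the controls.

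On day 13, 6 of the 10 members were called higher and none lower, where 8.40% of 24920 genes tested were called higher. The median log2 fold change of the members was 1.71, beside -0.04 for all genes tested. Without mouse D, 9 members were called higher, all but *Npas4*, where 10.1% of genes were, and the median was 2.04. The 6 called with all mice were *Fos*, *Fosb*, *Junb*, *Egr2*, *Nr4a1* and *Ier2*, and mice A, B and C carried the difference in each.

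*Fos*, *Fosb* and *Junb* encode subunits of the AP-1 transcription factor. *Fos* (chr12:85473890-85477273 on GRCm38, plus strand) measured 3.25, 6.79, 6.16 and 4.14 CPM in the controls and 101.7, 51.9, 150.5 and 1.77 CPM in mice A to D of day 13. Mice A, B and C thus lay at 10.2 to 29.6 times the control mean while mouse D lay below every control. The *Fos* increase on day 13 was 3.89 ± 0.93 (log2 fold change ± SE; adjusted p = 0.0145), and 4.29 ± 0.39 (adjusted p = 0.00037) without mouse D. *Fosb* (chr7:19302696-19310051, minus strand) measured 2.71, 4.77, 4.2 and 2.68 CPM in the controls and 30.2, 20, 56.5 and 1.62 CPM on day 13. Its increase was 2.89 ± 0.76 (adjusted p = 0.0211), and 3.28 ± 0.36 without mouse D. *Junb* (chr8:84974484-84978718, minus strand) measured 16.5, 25.2, 26.8 and 24.8 CPM in the controls and 114.7, 108.8, 179.5 and 20.8 CPM on day 13, where mouse D stayed within the control range. It rose by 2.16 ± 0.50 (adjusted p = 0.0124), and by 2.50 ± 0.22 without mouse D. *Junb* overlaps *Prdx2* on the opposite strand (chr8:84974484-84974834), and since the strand setting of the counting was not given, reads there could belong to either gene.

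*Egr1*, *Egr2* and *Egr4* encode zinc-finger transcription factors of the EGR family. *Egr2* had the lowest level at rest and the largest relative difference beside *Fos*. *Egr2* (chr10:67535475-67542188, plus strand) measured 0.660, 1.57, 1.20 and 0.536 CPM in the controls and 19.2, 10.1, 23.1 and 0.406 CPM on day 13. Its increase was 3.70 ± 0.88 (adjusted p = 0.0142), and 4.1 ± 0.40 without mouse D. *Egr4* (chr6:85511121-85513589, minus strand) measured between 3.67 and 6.1 CPM in the controls and 16.5, 10.2, 28.4 and 3.45 CPM on day 13. The *Egr4* difference of 1.504 ± 0.50 was just short of the threshold (adjusted p = 0.05003) and passed it without mouse D, at 1.83 ± 0.32 (adjusted p = 0.0043). *Egr1* measured 29.1, 34.6, 29.8 and 23.8 CPM in the controls and 89.5, 41.9, 86.1 and 14.1 CPM on day 13. It had the smallest difference of the members, 0.96 ± 0.45 (adjusted p = 0.141), which was called without mouse D, at 1.28 ± 0.25 (adjusted p = 0.0061).

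*Arc* encodes a synaptic protein that controls AMPA receptor trafficking, and *Npas4* a transcription factor that is induced by calcium entry in neurons and regulates inhibitory synapses. *Arc* (chr15:74669083-74672570, minus strand) measured 95.7, 121.6, 126.9 and 91.7 CPM in the controls and 341.2, 202.8, 533.8 and 57.6 CPM on day 13. The difference of 1.36 ± 0.51 was not called (adjusted p = 0.0730), but was called without mouse D at 1.70 ± 0.28 (adjusted p = 0.0034). *Npas4* (chr19:4984355-4990316, minus strand) exceeded the highest control in mice A and C of day 13 only, at 15.7, 5.98, 67.3 and 4.03 CPM, against 11, 6.02, 7.66 and 6.69 CPM in the controls. Mouse B, with high *Fos* and *Junb*, had an *Npas4* level just below the lowest control. *Npas4* was not called on day 13 with mouse D (1.55 ± 0.76; adjusted p = 0.157) or without it (1.90 ± 0.67; adjusted p = 0.0583).

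*Nr4a1* encodes an orphan nuclear receptor and *Ier2* a small nuclear protein. *Nr4a1* (chr15:101254269-101274795, plus strand) measured 31.8, 34.3, 35.1 and 27.4 CPM in the controls and 88.7, 81.4, 138.7 and 20.1 CPM on day 13. It rose by 1.33 ± 0.43 (adjusted p = 0.0454), and by 1.66 ± 0.18 without mouse D. *Ier2* (chr8:84661331-84662852, minus strand) measured 1.58, 1.52, 2.36 and 1.95 CPM in the controls and 8.52, 6.48, 10.6 and 1.98 CPM on day 13, so that mouse D lay within the control range. *Ier2* rose by 1.87 ± 0.42 (adjusted p = 0.0111), and by 2.18 ± 0.22 without mouse D.

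No member's 4 mice all lay above the controls, whereas this held for 17.1% of genes tested, and with mouse D set aside the other 3 mice lay above them in 9 of 10 members and in 21.3% of genes. Mouse C had the highest level of the group in 9 members, and mouse A in 1, *Egr1*. Mouse D had the lowest level in all 10 and lay below the lowest control in 8. When each of the 8 mice was left out in turn, *Egr2*, *Junb* and *Ier2* were called in all 8 fits. *Fos* was lost without control D (adjusted p = 0.0503). *Fosb* was lost without control A, C or D (adjusted p between 0.0579 and 0.0663), and *Nr4a1* without any one mouse other than mouse D of day 13 (between 0.0763 and 0.115).

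**Figure D2:**
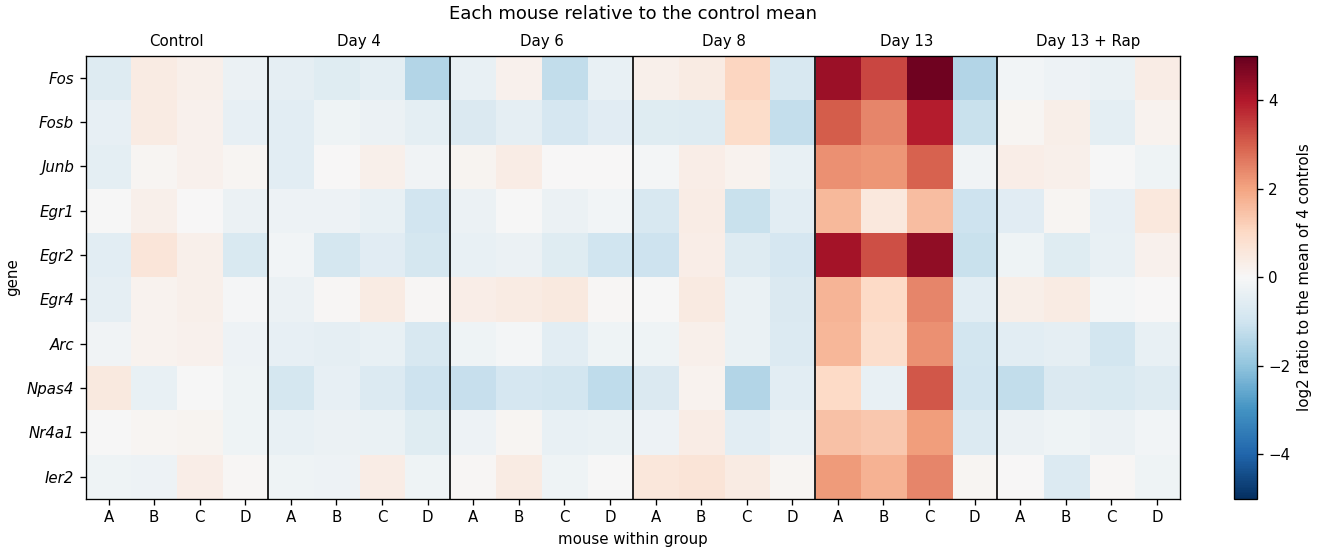
Log2 ratio of each mouse's level to the mean of the 4 controls (with 0.1 CPM added), for 10 members in rows and 24 mice in columns, red above and blue below. Day 13 mice A, B and C are red in every row except *Npas4* of mouse B, and mouse D is blue or white throughout.

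The paper describes day 8 as the time when seizures were first seen in some mice of this model. Whether the 4 day 8 mice measured here had seized is not given. The comparison of day 8 with the controls thus asks for activity-dependent transcription around onset, and not in mice known to have seized. No member was called on day 8, where 3.99% of 25085 genes tested were called in either direction, and 1 member, *Ier2*, had an unadjusted p under 0.05 (log2 fold change 0.45 ± 0.18; adjusted p = 0.132). DESeq2 on the same mice also called 0. The members' differences ran from -0.54 to 0.45, with a median of -0.17. The 4 mice differed from one another. Mouse C had the highest *Fos* at 10.7 CPM and the highest *Fosb* at 6.86 CPM, with the other 3 mice between 2.85 and 6.83 CPM for *Fos* and between 1.5 and 2.34 CPM for *Fosb*. The same mouse had the lowest *Egr1* of its group, at 13.4 CPM, and the lowest *Npas4*, at 2.78 CPM, both below every control. Mouse B was the highest in the other 8 members and exceeded the highest control in 7 of the 10, among them *Nr4a1* at 41.4 CPM and *Arc* at 130.1 CPM. Mouse D lay below the lowest control in 8 members.

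Single day 8 libraries decided what the test gave. Without mouse B, *Egr1* (-0.82; adjusted p = 0.0071) and *Npas4* (-0.89; adjusted p = 0.0430) were called lower, and without mouse C, *Fosb* was called lower (-0.84; adjusted p = 0.0470). Within the first number series shared with the controls (2 mice each) the *Egr1* difference was -0.24 ± 0.31, and within the second it was -0.68 ± 0.21, neither called. *Ier2* differed by 0.87 ± 0.21 in the first series and by 0.05 ± 0.24 in the second. With the series as a block no member was called.

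On day 4 and day 6, before seizures, the members that were called were lower. On day 4, *Arc* and *Npas4* were called lower, 2 of 10 members, where 0.340% of 25308 genes were. *Arc* measured 82.1, 79.0, 83.4 and 62.0 CPM in mice A to D, all below the lowest control at 91.7 CPM, a fall of 0.51 ± 0.11 on the log2 scale (adjusted p = 0.0259). *Npas4* measured 4.19, 5.94, 4.86 and 3.79 CPM, also below every control, and fell by 0.74 ± 0.18 (adjusted p = 0.0423). *Nr4a1* lay below all controls too, at 21.3 to 26.2 CPM, with a difference of -0.39 ± 0.08 (adjusted p = 0.0259) that was below the minimum size. The median over the members was -0.41, beside -0.00 for all genes, and all 4 mice lay below the controls in 3 of 10 members and in 5.72% of genes tested. *Npas4* was lost in 7 of 8 fits that left out 1 mouse (called only without control B), and *Arc* in 4, without control B or C or day 4 mouse B or D.

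On day 6, *Npas4* and *Fosb* were called lower, where 0.678% of 25057 genes were. *Npas4* measured 3.47, 4.37, 4.05 and 3.15 CPM, 2.09-fold below the controls (log2 fold change -1.07 ± 0.17; adjusted p = 0.0017), and stayed called whichever mouse was left out. *Fosb* measured 2.12, 2.61, 1.98 and 2.40 CPM, all just below the lowest control at 2.68 CPM. All 4 mice lay below the controls in these 2 members and in 6.19% of genes. The difference of *Fosb* (-0.67 ± 0.19; adjusted p = 0.0367) was lost without control B or C or any one day 6 mouse (adjusted p between 0.0533 and 0.116). The other members differed from the controls by -0.61 to 0.33 and were not called. Mouse B was the highest of the day 6 group in 9 of the 10. The markers of blood moved in the same comparisons: 4 of 5 were called lower on day 4 and 4 of 5 on day 6, with summed levels of 35.1 to 46.1 CPM on these days and 58.8 to 75.6 CPM in the controls. The part of blood in the lower levels was not tested.

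From day 4 to day 6 and from day 6 to day 8 no member was called by edgeR or by DESeq2, where edgeR called 0.604% and 0.229% of genes, and 2 and 0 members had an unadjusted p under 0.05. From day 8 to day 13 the members differed by 1.39 to 4.21, and all 10 had an unadjusted p under 0.05, but edgeR called 0 of 24747 genes, with 3479 at an unadjusted p under 0.05. DESeq2 on the same 8 mice called 4 members, *Fos*, *Junb*, *Egr2* and *Ier2*, and edgeR called these and *Nr4a1* without mouse D, where 0.213% of genes were called higher. With edgeR fitted on all 24 mice, all 10 were called. DESeq2 called 149 of 21892 genes higher and the fit on 24 mice 735 of 27110.

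**Figure D3:**
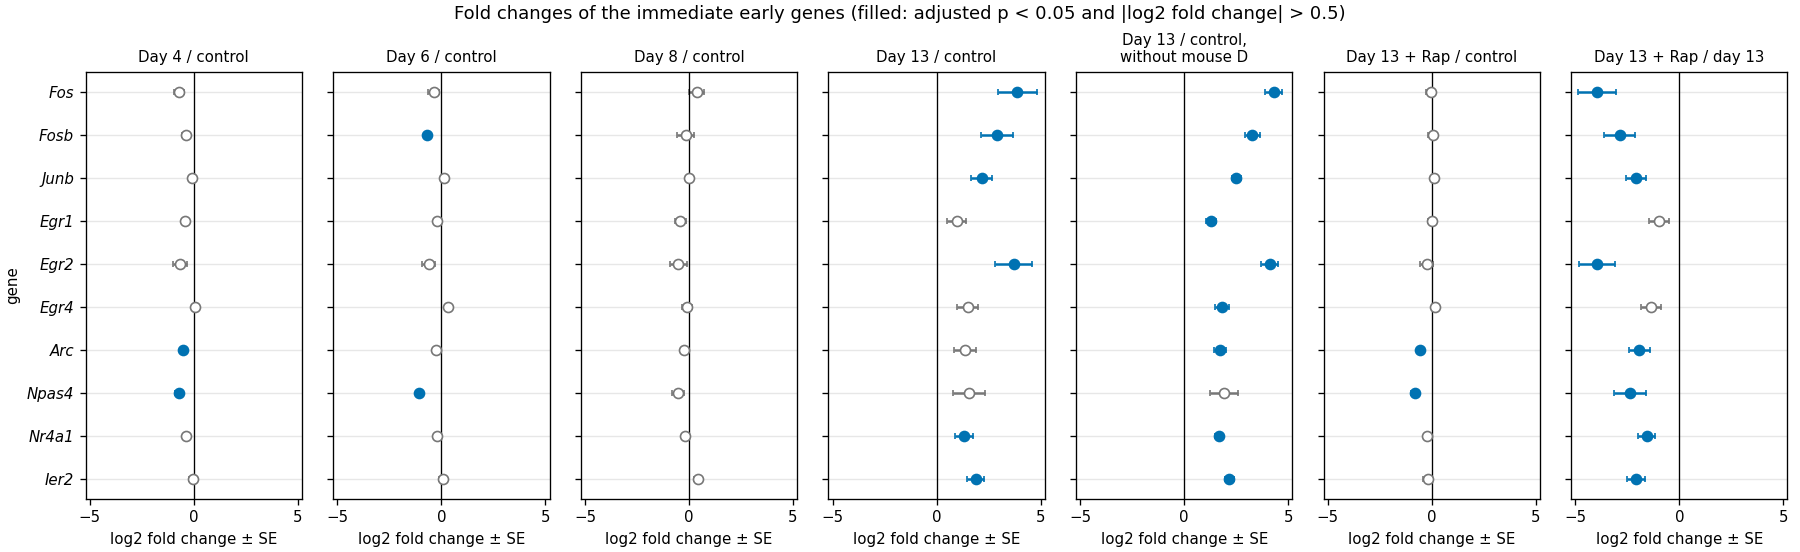
Log2 fold change (points) and standard error (bars) of each member in 6 comparisons and in the day 13 comparison without mouse D; filled points passed the threshold. The day 13 differences lie between 0.96 and 3.89, the rapamycin group lies near 0 against the controls except for *Arc* and *Npas4*, and the error bars of day 13 shrink without mouse D.

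The *Tsc1-Cre+*-Rap group asks whether mTOR inhibition from day 4 kept the day 13 change from appearing. Most members lay within or close to the range of the controls. *Fos* measured 4.61, 4.26, 4.02 and 6.68 CPM, all within the control range, with a difference of -0.06 ± 0.22. *Egr2* measured 0.609 to 1.18 CPM, *Junb* 19.9 to 29.6 CPM and *Nr4a1* 26.2 to 29.0 CPM. Only *Arc* and *Npas4* were called against the controls, both lower, where 1.04% of 25006 genes were. *Arc* measured 74.7, 79.7, 58.1 and 83.8 CPM and *Npas4* 3.30, 4.69, 4.6 and 5.01 CPM, all below the lowest control, and they fell by 0.56 ± 0.12 (adjusted p = 0.0221) and 0.82 ± 0.18 (adjusted p = 0.0266). *Arc* lost its call without control B or C or rapamycin mouse A or C, and *Npas4* without control C or rapamycin mouse A, B or C. Markers of other cells were called lower in the same comparison, 3 of 6 for oligodendrocytes, 2 of 6 for astrocytes, 2 of 5 for blood, 1 of 6 each for microglia, vessels and dentate granule cells and 1 of 4 for oligodendrocyte precursors. The part of these cells in the lower *Arc* and *Npas4* was not tested. The comparisons of day 4, day 6 and rapamycin share their 4 controls. The *Arc* level of control mice B and C, 121.6 and 126.9 CPM, was higher than that of any mouse on day 4, on day 6 or under rapamycin.

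Against untreated day 13 mice, 8 of the 10 members were lower in the *Tsc1-Cre+*-Rap group, where 11.2% of 24274 genes were called lower, and the median log2 fold change was -2.07 beside 0.02 for all genes. *Egr2* and *Fos* differed most, by -3.96 ± 0.86 and -3.96 ± 0.91, corresponding to 15.6-fold and 15.5-fold lower levels. *Egr1* (-0.99 ± 0.48; adjusted p = 0.138) and *Egr4* (-1.34 ± 0.48; adjusted p = 0.0577) were not called, and without mouse D all 10 members were, where 12.5% of genes were called lower. *Fos*, *Egr2*, *Junb* and *Ier2* were called whichever mouse was left out. *Npas4* was lost without day 13 mouse C, where the difference was -0.96, or without any one rapamycin mouse. *Fosb* was lost without rapamycin mouse C or D, *Arc* without rapamycin mouse C, and *Nr4a1* without rapamycin mouse A, C or D, all at adjusted p-values between 0.0501 and 0.0530.

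The list of other first-wave genes holds further immediate early genes outside the members, among them *Egr3*, *Jun*, *Fosl2* and *Atf3*. This list and those below were chosen with earlier results of these data known. Their counts are thus descriptive and no independent support. Of 39 tested, 26 were called higher and none lower on day 13 against the controls, where 8.40% of all genes were called higher. Their median log2 fold change was 1.21. *Atf3*, a stress-induced transcription factor, rose by 4.89 ± 0.76 (adjusted p = 0.0024) and the small MAF factor *Maff* by 3.82 ± 0.73 (adjusted p = 0.0057). *Ccn1*, a matricellular protein, rose by 3.56 ± 0.65 and *Gadd45b*, a regulator of DNA demethylation and stress signaling, by 2.77 ± 0.49. Without mouse D, 32 of 40 were called higher, where 10.1% of all genes were. In mouse D, where no member exceeded the highest control, 23 of the 39 did so, with a median log2 ratio to the control mean of 0.29, beside 1.58, 1.22 and 1.158 in mice A to C. On day 8, 23, 23, 25 and 13 of the 39 exceeded the highest control in mice A to D. The count in mouse D of day 13 was thus not particular to it. *Atf3* measured 43.0, 19.5, 13.9 and 2.36 CPM in mice A to D, against 0.330 to 0.805 CPM in the controls. Under rapamycin 26 of the 39 were lower and 1 was higher than on day 13, where 11.2% and 9.94% of all genes were. Without mouse D, 31 of the 39 were lower and none higher, where 12.5% and 11.6% of all genes were. Against the controls, 2 were higher on day 4, 3 on day 6 and 2 under rapamycin, where 0.340%, 0.647% and 0.372% of all genes were.

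Genes of the delayed wave, which follow the immediate early genes, were called higher in 16 of 22 cases on day 13, none lower. Their median was 1.31, and 18 were called higher without mouse D. Of all genes, 8.40% were called higher with all mice and 10.1% without mouse D. None of the 22 was called on day 4 or day 6, and 1, *Penk*, was lower under rapamycin than in the controls, where 1.04% of all genes were. Against day 13, 15 of the 22 were lower under rapamycin, and 18 without mouse D, where 11.2% and 12.5% of all genes were. *Nptx2*, a secreted organizer of AMPA receptors, rose by 3.60 ± 0.52 (adjusted p = 0.0017), the opioid precursor *Penk* by 2.13 ± 0.34, the receptor *Gpr3* by 2.00 ± 0.32 and the neuropeptide precursor *Scg2* by 1.89 ± 0.24. *Nptx2* measured 227.5, 406.1, 140.2 and 49.7 CPM in mice A to D and 15.6 to 18.7 CPM in the controls. Mouse D, with 8 members below every control, was thus above every control in *Nptx2*, and also in *Scg2* (330.2 against at most 145.5 CPM) and *Penk* (47.2 against at most 17.3 CPM). In all, 16 of the 22 delayed genes exceeded the highest control in mouse D. No share over all genes is set beside this count. In the other first-wave list, 12 to 21 of 39 genes exceeded the highest control in single mice of day 4 and day 6. The members and the delayed genes also ranked the mice differently: the members were highest in mouse C, with a median log2 ratio of 2.7, and the delayed genes in mouse A, with 1.70, followed by mouse B with 1.63 and mouse C with 0.87.

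On day 8, when no member was called, 8 of the 22 delayed genes and 6 of the 39 other first-wave genes were higher, and none was lower, where 2.15% of all genes were higher. *Nptx2* rose by 1.43 ± 0.42 (adjusted p = 0.0467), with 39.6, 22.8, 99.6 and 19.9 CPM in mice A to D, all above the highest control. *Scg2* rose by 0.98 ± 0.22 and *Bdnf*, the neurotrophin, by 0.96 ± 0.26, and both were highest in mouse C, at 468.7 and 131.1 CPM, and next in mouse A, at 259.1 and 84.9 CPM. Mouse B, with the highest *Arc*, *Egr1* and *Nr4a1* of the group, had the second-lowest or lowest level of *Nptx2*, *Scg2* and *Bdnf*. Among the other first-wave genes *Maff* rose by 1.65 ± 0.40 (adjusted p = 0.0222) and *Ppp1r15a* by 0.73 ± 0.12. The difference between the lists was not tested.

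**Figure D4:**
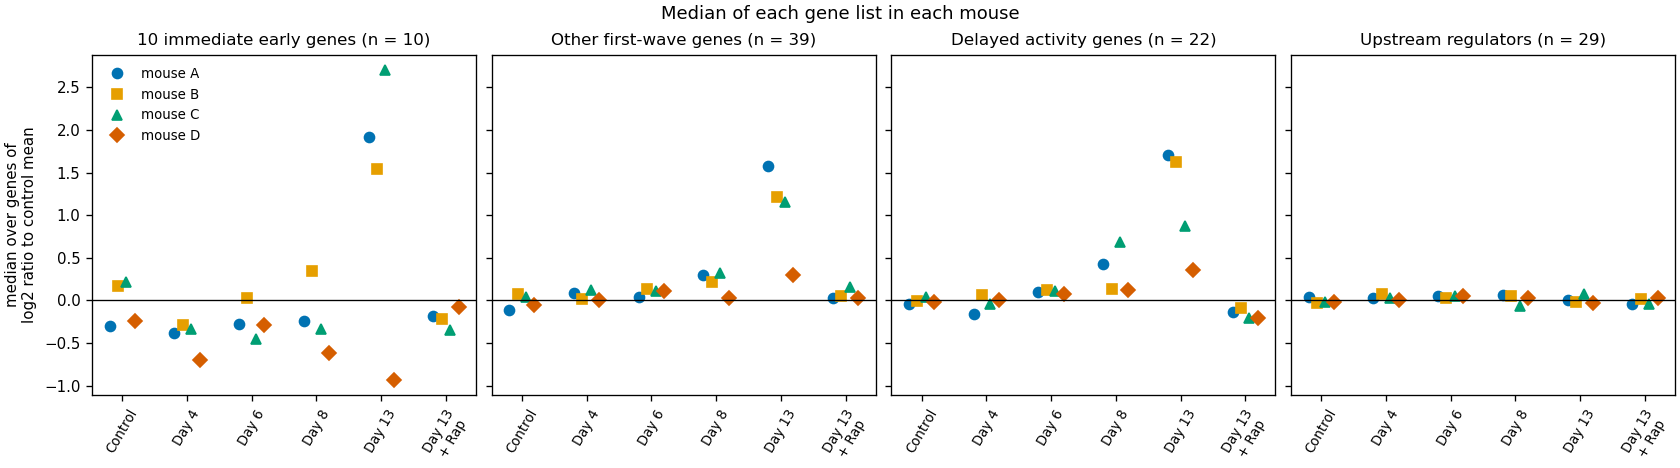
Median over the genes of each list of the log2 ratio to the control mean, 1 point per mouse, in 6 groups of 4 mice. Day 13 mouse D lies at -0.93 for the members and at 0.36 for the delayed genes, and the upstream regulators lie near 0 in every mouse.

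Of 29 upstream regulators, such as the genes of CREB, SRF, their coactivators and kinases, none was called higher and 2 lower on day 13, with a median of -0.04, where 8.06% of all genes were called lower. The kinase gene *Rps6ka5* fell by 0.88 ± 0.22 (adjusted p = 0.0192) and the CREB coactivator gene *Crtc1* by 0.57 ± 0.15 (adjusted p = 0.0191). Without mouse D, 3 were called higher and 2 lower, where 10.1% and 10.6% of all genes were. Of 17 feedback and partner genes, 7 were called higher on day 13 (9 without mouse D), where 8.40% and 10.1% of all genes were. The median was 0.49. Among the called were the ERK phosphatase gene *Dusp5* (1.73 ± 0.31), the repressor gene *Nfil3* (1.71 ± 0.30) and the AP-1 partner *Batf3* (1.58 ± 0.42). On day 4 none of the 17 was called, and 1 each on day 6 (*Endog*) and day 8 (*Homer3*). Against day 13, 1 of the 17 was higher and 8 were lower under rapamycin, where 9.94% and 11.2% of all genes were. Without mouse D none was higher and 8 were lower, where 11.6% and 12.5% of all genes were.

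Genes that respond to handling stress and glucocorticoids were counted because such stress also induces immediate early genes. Of 12 tested, 6 were called higher on day 13 and 6 in the *Tsc1-Cre+*-Rap group, where 8.40% and 0.372% of all genes were. The medians were 0.52 and 0.48, and without mouse D the day 13 count was also 6, where 10.1% of genes were called higher. On day 4, 2 were called higher, *Sgk1* and *Sult1a1*, where 0.340% of all genes were, and the median of the list was 0.40. The summed level of the list was 503.6 to 595.1 CPM in the 4 day 4 mice against 362.2 to 415.1 CPM in the controls. In the same comparison *Arc* and *Npas4* were lower. Against the controls, *Sgk1*, a glucocorticoid-induced kinase, rose by 0.97 ± 0.17 on day 13 and 1.20 ± 0.12 under rapamycin. *Fkbp5*, a modulator of the glucocorticoid receptor, rose by 0.60 ± 0.11 and 0.62 ± 0.06, and *Cdkn1a* by 3.70 ± 0.67 and 1.70 ± 0.17. The other genes called differed between the groups. They were *Hspb1* (3.28 ± 1.06), *Mt2* (2.39 ± 0.52) and *Mt1* (1.81 ± 0.32) on day 13. Under rapamycin they were *Sult1a1* (0.98 ± 0.13), *Tsc22d3* (0.77 ± 0.11) and *Zbtb16* (0.58 ± 0.06). In the 4 day 13 mice the median log2 ratio of this list was 0.49, 0.69, 0.53 and 0.54, so mouse D lay within the range of the other 3. Markers of dentate granule cells were lower on day 13 in 3 of 6 cases, beside 8.06% of all genes. *Plk5* fell by 4.62 ± 0.68 (adjusted p = 0.0020) and *Calb1* by 1.19 ± 0.23. *Plk5* measured 0.246, 0.179, 2.2 and 1.70 CPM in mice A to D and at least 21.1 CPM in the controls. Without mouse D, 4 of the 6 were lower, where 10.6% of all genes were. Of 6 general neuronal markers 1 was called on day 13, *Slc17a7*, which was higher (0.73 ± 0.08), and of 7 markers of CA1 and CA3 pyramidal neurons 1 was lower, *Cdh24* (-1.13 ± 0.18; adjusted p = 0.0029). The summed level of the choroid plexus list ranged from 41.8 to 1712 CPM over all mice, with none of its 6 genes called on day 13. The blood list was lower on day 13 in 5 of 5 cases. Of 6 astrocyte markers 1 was higher and 1 lower, of 6 microglial markers 1 was higher, and none of the markers of interneurons, oligodendrocytes, their precursors or vessels was called. Without mouse D, 3 of 6 oligodendrocyte markers were lower. The part of these lists in the results of the members was not tested.

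The genes most like the members were ranked among 18245 genes with a mean of at least 1 CPM, by the correlation of log2 CPM with the mean z score of the members over 24 mice. The first was *1700016P03Rik* (Pearson's r = 0.963), a noncoding transcript on chromosome 11 whose annotated span (75172560 to 75177633) holds the microRNA genes *Mir212* and *Mir132*. It measured 6.47, 4.02, 11.4 and 0.279 CPM in mice A to D of day 13 and at most 1.59 CPM in all other mice, and over the 20 mice outside day 13 its r was 0.738. *Homer1*, a postsynaptic scaffold gene with an activity-induced short form, was the ninth with r = 0.915, at 641.1, 612.4, 635.2 and 160.6 CPM on day 13 and 184.9 to 212.8 CPM in the controls. Its r outside day 13 was 0.319. *Gm42607* (r = 0.904) was the tenth. The other 7 were 6 of the near-identical gene models at the start of chromosome 9 (*Gm10719*, *Gm11168*, *Gm10715*, *Gm10718*, *Gm10722* and *Gm10717*) and *Gm21738* on chromosome 14. These 7 had r between 0.916 and 0.952 over all mice but between -0.07 and 0.22 outside day 13, and reads of such copies cannot be assigned with certainty. The minimum was set on the mean over all 24 mice, so a gene could pass it through the day 13 mice alone. The 6 models on chromosome 9 did so through mice A, B and C, where the members were also high. The first-ranked *1700016P03Rik*, at a mean of 1.64 CPM over all mice, and *Gm21738* also averaged less than the minimum outside day 13. These 2 genes thus passed it through mice A, B and C too. The 6 models had at most 0.393 CPM in any mouse outside day 13, so their r there describes values near 0.

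With each mouse taken relative to its group's mean, *1700016P03Rik* was again the first (r = 0.949), followed by *Dusp6*, a phosphatase that acts on ERK (r = 0.929). *Dusp6* measured 66.1, 52.2, 84.5 and 33.4 CPM on day 13 and kept an r of 0.644 over the 20 mice outside day 13. *Egr3*, the EGR family member that was left out of the 10, was the tenth (r = 0.880), at 82.8, 47.6, 126.2 and 28 CPM on day 13. Outside day 13 the r of *Egr3* was 0.342. The others were *Gm10719*, *Gm11168*, *Gm26466*, *Gm10718*, *Gm10715*, *Gm42607* and *Frmd6*, with r between -0.33 and 0.46 outside day 13. These correlations describe points that share libraries and depth, and 4 of the 24 points are the day 13 mice.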

How the data were processed

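The authors deposited raw counts per gene for each of the 24 mice, which they had made from stranded, ribosomal RNA-depleted total RNA libraries. According to the submitters' processing notes, cutadapt 1.16.5, STAR 2.7.2b and featureCounts 1.6.4 were used on the mouse genome GRCm38. The strand setting and the treatment of multimapping reads were not given in the sources used here. Of the 55385 gene identifiers, 55144 were found in GENCODE M21, an older annotation than the authors', which supplied names and coordinates.

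Library totals ranged from 28208561 to 126435936 counts (median 55582027). Each of 9 comparisons between groups was fitted on its 8 mice with edgeR 4.0.16 in R 4.3.3 (filterByExpr, TMM, quasi-likelihood test), and adjusted p-values were computed over all genes tested. SEs were derived from the log2 fold change and its F statistic. An F test over 6 groups used all 24 mice. Ratios to the control mean had 0.1 CPM added. Each sample is a mouse by its label, and p-values measure the spread between these mice. All 10 members were named in every comparison, other lists by counts, and the 10 genes most like the members by correlation. The members and lists were chosen with earlier results of these data known. Counts of list genes without mouse D of day 13 were added after seeing the data, and the use of this fit beside the results of the members was chosen then too. Alternatives were DESeq2 1.42.0, other filters, normalizations and fold minimums, a GC offset, a fit on all mice, replicate letters as a block and leaving out each mouse. On simulated data for day 13 versus control, edgeR recovered 72% of 200 genes changed 2-fold, with 4 false calls among 24506 genes. The simulation gave both groups the spread of the 4 controls. The day 13 mice spread more widely in the members, so these rates do not describe the real comparison.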

Additional observations from a re-analysis of the deposited data

Results flagged for a closer look

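In each of the 60 combinations of member and group, the highest and lowest of the 4 mice were compared with the rest of their group by Dixon's criterion, which chance passes in about 1 in 20 groups. It was passed by 2. On day 8, mouse C had 6.86 CPM of *Fosb*, far from the other 3 mice. On day 4, mouse C had 2.42 CPM of *Ier2*.

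For 8 members, rapamycin-treated and untreated *Tsc1-Cre+* mice of day 13 differed in the direct test. Without *Tsc1-Cre-* mice given rapamycin, the effect of rapamycin itself and a smaller effect of the deletion cannot be told apart. The log2 fold change was -3.96 for *Fos*, -2.86 for *Fosb*, -2.07 for *Junb*, -3.96 for *Egr2*, -1.93 for *Arc*, -2.39 for *Npas4*, -1.57 for *Nr4a1* and -2.08 for *Ier2*.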

How the results depend on the processing

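Counts below are of the 10 immediate early genes. With edgeR fitted on all 24 mice, 0 were called on day 4, 0 on day 6, 10 on day 13, 0 for rapamycin against the controls and 10 for day 13 against day 8. DESeq2 called 4 in the last comparison. With a minimum log2 fold change of 1, 0 were called on day 4, 1 on day 6 and 0 for rapamycin against the controls, where a GC offset left 1. The letters of the mice did not pair them, since same-letter mice correlated between -0.219 and 0.122 over 36 pairs and 7 correlated best with their own letter. With the letter as a replicate block, 1 was called on day 4, 3 on day 13 and 3 for rapamycin against day 13. Leaving out each mouse in turn gave 0 to 1 called genes on day 4, 1 to 2 on day 6, 0 to 2 on day 8, 3 to 9 on day 13, 0 to 2 for rapamycin against the controls, 4 to 10 for rapamycin against day 13, 0 to 0 for day 6 against day 4, 0 to 1 for day 8 against day 6, 0 to 5 for day 13 against day 8 and 8 to 10 in the F test. The causes were not tested. No called value changed its direction under the alternatives run. Differences that were not called did so in several, among them day 8 against the controls within the first number series for *Egr4* (0.34), *Arc* (0.03) and *Nr4a1* (0.03) and within the second for *Fosb* (0.27) and *Junb* (-0.22). What depth limits was not compared between members.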
